A study of Mus musculus with 8 samples.

Results

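The calcium cycling genes of heart muscle were examined in left ventricles of wild type mice and of mice with raised miR-100, a microRNA, in heart muscle. The set comprised 38 genes, named by symbol, for the pumps, channels, store proteins, exchangers and kinases that move calcium in and out of the heart muscle cytosol. Of these, 35 had a row in the deposited table of 22206 rows, each gene with a single row. Atp2b4, Pde4d and Itpr1 were not analysed here. The 8 arrays each held total RNA from the left ventricle of an untreated male of strain C57/BL6J aged 8 weeks, with 4 wild type and 4 miR-100 samples. The miR-100 genotype is given as cardiac-specific overexpression, and the promoter that drives it, the number of founder lines and the litters are not stated in the labels. Nothing states that the arrays of a group came from separate litters, so p-values rest on the spread between these 8 samples. The test draws that spread towards a value common to all rows.

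In each heartbeat, calcium that enters through L-type channels of the surface membrane opens ryanodine receptors of the sarcoplasmic reticulum, and the calcium they release starts contraction. Relaxation follows as the SERCA pump, held back by phospholamban, returns calcium to the reticulum and the sodium-calcium exchanger carries the rest out of the cell. Inside the reticulum calsequestrin binds the stored calcium, and junctophilins hold the reticulum close to the surface membrane so that both kinds of channel face each other.

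The microRNA raised in the transgenic hearts is shown first because it defines the groups. MicroRNAs guide a silencing complex to messenger RNAs mainly through the seed, bases 2 to 8 of the mature strand, which is in capitals below and is the same in miR-100-5p and miR-99a-5p (RefSeq, GRCm38.p6, at chr9:41531437-41531458 and chr16:77598940-77598961, plus strand). Pairing of this seed with transcripts of the calcium genes was not tested.
mmu-miR-100-5p: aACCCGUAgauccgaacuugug
mmu-miR-99a-5p: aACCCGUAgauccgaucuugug

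None of the 35 calcium cycling genes passed the test across the table, and the lowest adjusted p was 0.203 (limma, Benjamini-Hochberg over all rows). In the table as a whole 31 rows, or 0.140%, passed an adjusted p of 0.05. At an unadjusted p under 0.05 there were 5 of the 35, namely Casq1, Casq2, Slc8a1 and Atp2a1 with higher means in the miR-100 hearts and Jph1 with a lower mean, beside 7.73% of all rows. The 4 values of each group did not overlap for 3 genes, Casq1, Casq2 and Jph1, beside 4.54% of all rows. These shares rest on counts of 5 and 3 genes, and since the genes were chosen by name with earlier results known they are given as a description.

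Most differences were small, as in the table as a whole. Values are log2 signals, on which a step of 1 is a doubling, and differences are miR-100 minus wild type. Of the 35 differences 18 lay above 0 and 17 below, with a median of 0.01 beside -0.015 over all rows. In size 25 of the 35 were smaller than 0.2, beside 14981 of all 22206 rows. The 95% confidence interval of the difference lay wholly between -0.5 and 0.5 for 23 of the 35, beside 43.6% of all rows. It lay between -1 and 1 for 34, the exception being Casq1, beside 21547 of all 22206 rows. Row means were under 4 for 2 of the genes (Atp2a1 and Ryr1) and between 4 and 6 for 5 (Sln, Fkbp1b, Cacna1d, Ppp1r1a and Stim1). How far such low signal follows RNA amount was not tested. The plot of differences by role shows every interval.

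**Figure D1:**
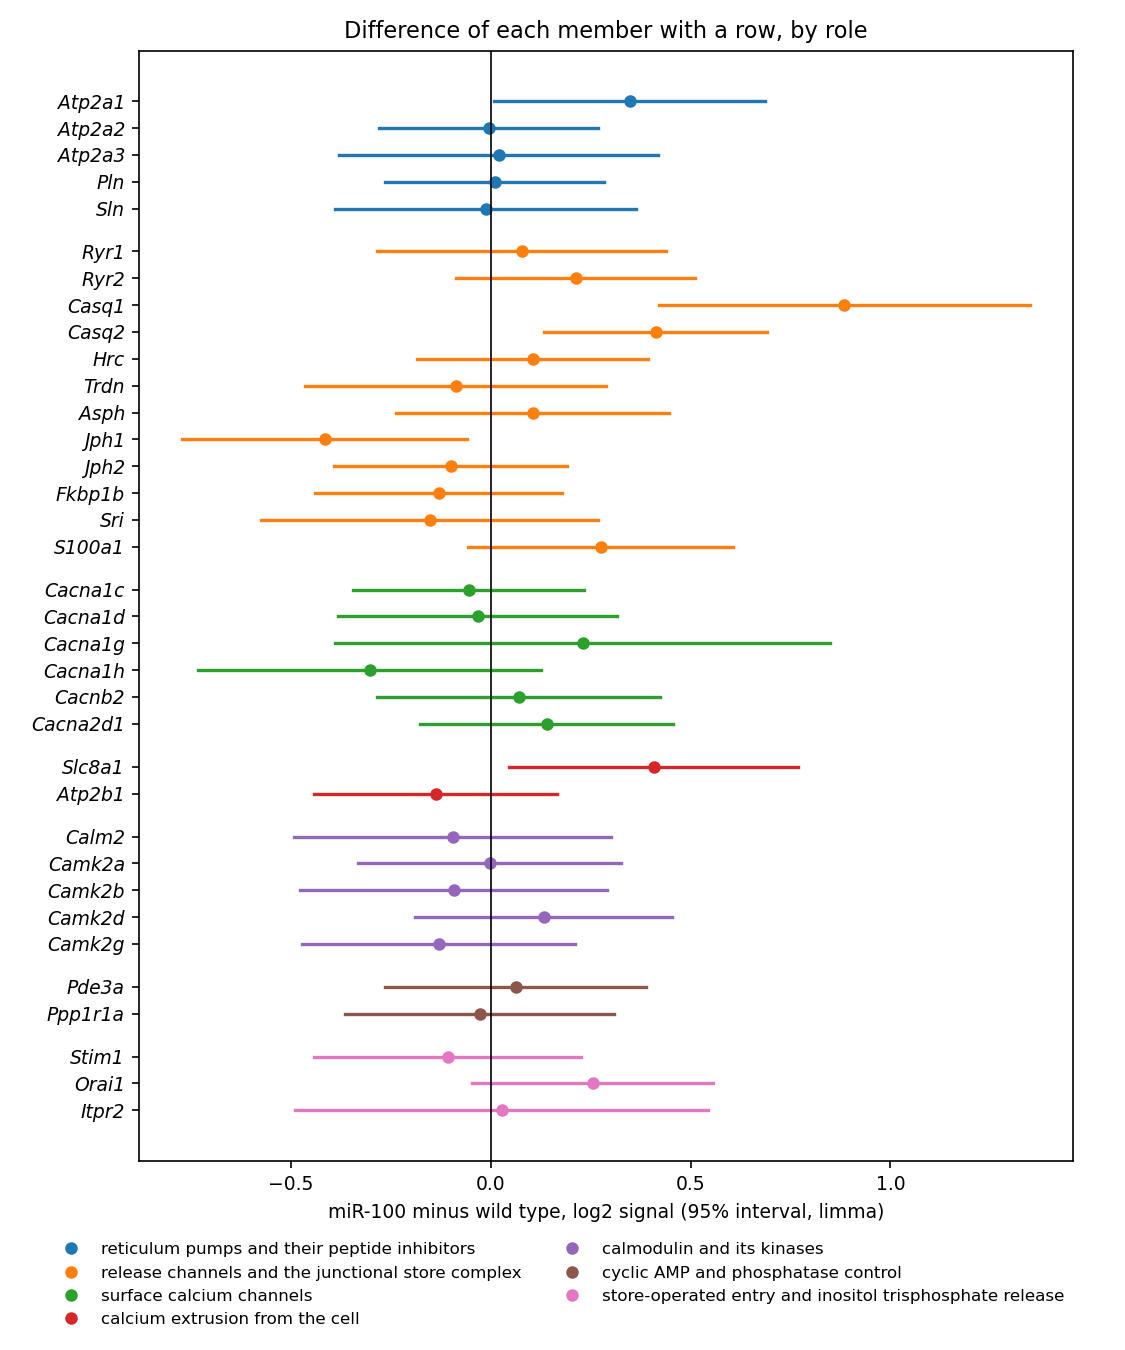
Difference in log2 signal (miR-100 minus wild type, horizontal axis) of the 35 calcium cycling genes with a row, with 95% intervals from limma and colours for the 7 roles. Most points lie within 0.2 of 0, while Casq1 (0.89), Casq2 (0.41) and Slc8a1 (0.41) lie to the right and Jph1 (-0.42) to the left.

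The arrays resembled each other, with correlations between 0.988 and 0.993 over all rows and column medians between 5.70 and 5.74. Wild type replicate 2 lay apart on the first principal component, at -38.2 where the other wild type arrays had -13.0 to -3.49. On the same component miR-100 replicate 2 had 30.8 where the other miR-100 arrays had 8.96 to 13.5. Among the 35 calcium genes, wild type replicate 2 was the highest or the lowest of its group in 19, or 54.3%, beside 54.9% of all rows. For miR-100 replicate 2 the count was 17, or 48.6%, beside 46.9% of all rows. All 10 defining heart muscle markers were measured, with row means from 6.87 (Nkx2-5) to 19.80 (Tnnt2), 4 differences above 0, 6 below and 0 past the test. Their summed signal ran from 21.83 to 21.90 (log2 of the sum) in wild type and from 21.79 to 21.84 in miR-100 arrays, but rows near the top of the scale carry most of that sum. The groups did not overlap for Mybpc3, with a difference of 0.40 (unadjusted p = 0.0215, adjusted p = 0.520, limma), nor for Myl3, with -0.28 (adjusted p = 0.689, limma), and their part in the results was not tested. In a list of 8 smooth muscle and pericyte markers 0 passed, with 4 differences above 0 and 4 below and a median of -0.02. The groups did not overlap for Acta2, with 1.11 (adjusted p = 0.203, limma), nor for Kcnj8, with -0.31 (adjusted p = 0.609, limma). Their part in the results was not tested either. In whole tissue, fewer cells of a type and less RNA per cell cannot be told apart. No row carries the name of miR-100, so its own level was not checked.

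The calsequestrins, the calcium-binding proteins of the reticulum lumen, held the lowest p-values of the set. Casq2, the cardiac calsequestrin, had values of 16.54, 16.49, 16.55 and 16.49 in the wild type arrays and 16.87, 16.89, 16.95 and 17.01 in the miR-100 arrays. All 4 miR-100 values lay above all 4 wild type values, and the gap of 0.32 between the groups was larger than the range within either group. The mean went from 16.52 ± 0.03 to 16.93 ± 0.06 (SD, n = 4 each), a difference of 0.41 (SE 0.13), which is 1.33-fold with a 95% interval of 1.10 to 1.61. This did not pass over all rows (unadjusted p = 0.00699, adjusted p = 0.371, limma).

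The call for Casq2 depended on how the test borrows spread from other rows. The moderated test draws each row's residual SD towards a common value, which was 0.244 here, while Casq2's own residual SD was 0.050 and the median among rows with means between 16 and 18 was 0.142. When the common value was allowed to follow the signal (limma with an intensity trend), Casq2 had a difference of 0.41 (SE 0.08, adjusted p = 0.0401, limma), and it was the single calcium cycling gene past the threshold beside 0.293% of all rows. That call held in 1 of the 8 fits with the trend that left out an array, without wild type replicate 2 (adjusted p = 0.0429, limma), and the adjusted p in the other 7 ran up to 0.159. Without the trend, the difference stayed between 0.39 and 0.43 whichever array was left out. At an unadjusted p under 0.05 the trend fit on all 8 arrays held 7 of the 35 genes, beside 7.85% of all rows (limma). It added Ryr2 and S100a1 to those of the main test.

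Casq1, the calsequestrin of fast skeletal muscle, stood at percentile 75.9 of all row means. It had 8.80, 8.18, 8.58 and 8.06 in wild type and 9.41, 9.72, 8.81 and 9.22 in miR-100 arrays. The groups did not overlap, but the lowest miR-100 value stood only 0.01 above the highest wild type value. The mean went from 8.41 ± 0.34 to 9.29 ± 0.38 (SD, n = 4 each), a difference of 0.89 (SE 0.22), or 1.85-fold with a 95% interval of 1.34 to 2.55 (unadjusted p = 0.00121, adjusted p = 0.203, limma). Without single arrays the difference ran from 0.74 to 1.05 and the limma adjusted p from 0.141 to 0.419.

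Markers of skeletal muscle are given beside Casq1 because that tissue is rich in it. All 10 listed markers were measured, 5 had differences above 0 and 5 below, and 0 passed the test, with Tnni2 higher and Mylpf lower at an unadjusted p under 0.05 (limma). Their row means ran from 3.76 to 5.96, and their summed signal ran from 8.31 to 8.46 in wild type and from 8.23 to 8.63 in miR-100 arrays (log2 of the sum). The median difference of the 10 was 0.02, at a median percentile of 34.1 of all row means, and Casq1 differed by 0.89. Whether skeletal muscle tissue had a part in the Casq1 difference was not tested.

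Upstream sequences of both calsequestrin genes are shown because these are the members with the lowest p-values and both had higher means in the miR-100 hearts. Each is the 250 bases before the annotated start (RefSeq, GRCm38.p6, Casq1 at chr1:172219896-172220145 on the minus strand and Casq2 at chr3:102086165-102086414 on the plus strand), read 5′ to 3′ along the gene. Capitals mark matches on either strand to CANNTG, the E-box bound by basic helix-loop-helix factors such as MyoD, and to the MEF2 element.
Casq1: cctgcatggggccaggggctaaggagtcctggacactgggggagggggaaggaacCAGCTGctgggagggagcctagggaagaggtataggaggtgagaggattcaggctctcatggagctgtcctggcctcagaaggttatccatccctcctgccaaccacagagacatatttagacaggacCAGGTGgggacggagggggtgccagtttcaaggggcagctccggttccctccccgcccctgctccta
Casq2: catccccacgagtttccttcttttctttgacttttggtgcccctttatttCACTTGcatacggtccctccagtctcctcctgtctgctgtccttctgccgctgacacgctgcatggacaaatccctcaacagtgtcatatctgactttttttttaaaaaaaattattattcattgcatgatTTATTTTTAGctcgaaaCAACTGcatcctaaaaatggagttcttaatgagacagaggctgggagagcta

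Each calsequestrin window held 2 E-box matches. CANNTG is a loose pattern, found in 66.2% of all 32851 windows of this length and in 62.1% of the 29 windows that belong to 23 of the calcium cycling genes. A MEF2 element, the site of a muscle transcription factor family, occurred once upstream of Casq2, starting 69 bases before the start. No other window of the set held one, so the share was 3.45% of the members' windows, beside 2.92% of all. TATAAA lay in 6.90% of the members' windows, at Cacna1d and Pln, beside 12.4% of all. The GATA factor motif AGATAA lay in 6.90% as well, at Pln and Slc8a1, beside 9.99% of all. Every match is a description of letters, and binding was not measured.

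Among the remaining store and release proteins, Jph1 was the one whose groups did not overlap. Jph1, the junctophilin that is prominent in skeletal muscle, had 8.02, 7.88, 7.58 and 7.80 in wild type and 7.48, 7.03, 7.56 and 7.55 in miR-100 arrays. The miR-100 values all lay below, by a gap of 0.02, and replicate 2 of that group was the lowest of all 8. Its difference was -0.42 (SE 0.17), or 0.750-fold with a 95% interval of 0.586 to 0.960 (adjusted p = 0.549, limma). Without miR-100 replicate 2 the difference was -0.29. Jph2, the junctophilin of heart muscle, differed by -0.10, with an interval of -0.39 to 0.19.

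**Figure D2:**
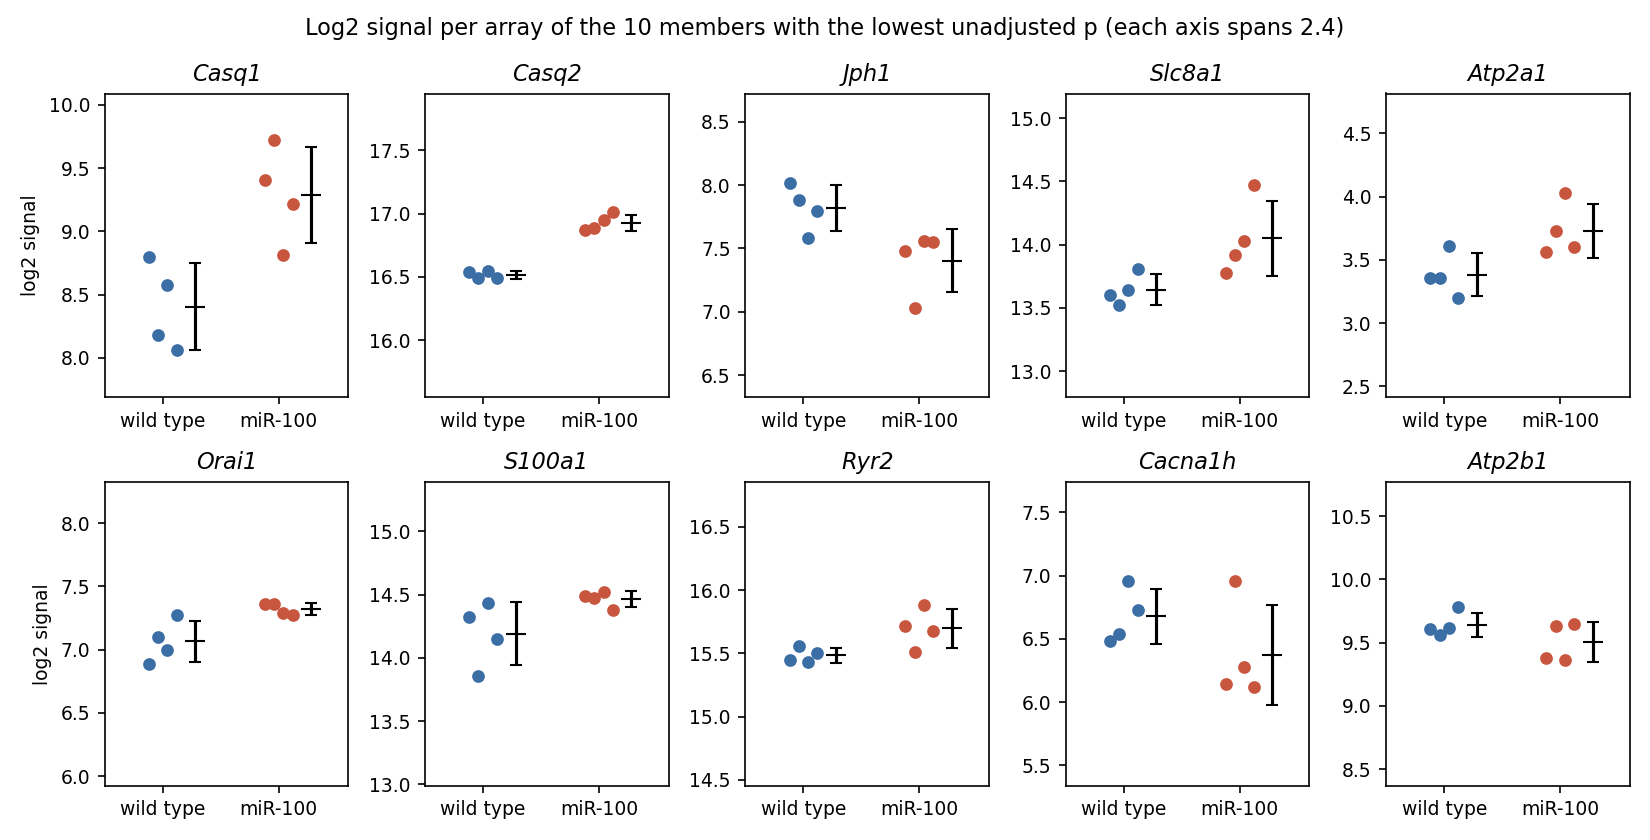
Log2 signal on each array (points) of the 10 calcium cycling genes with the lowest unadjusted p, with the mean and SD (n = 4 each) beside the points and the same span of 2.4 on each vertical axis. For Casq2 the groups are tight and apart (16.49 to 16.55 against 16.87 to 17.01), for Casq1 and Jph1 they nearly touch, and for the other 7 they overlap or meet.

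Ryr2, the cardiac ryanodine receptor, had 15.45, 15.56, 15.43 and 15.50 in wild type and 15.72, 15.51, 15.88 and 15.68 in miR-100 arrays. Replicate 2 of the miR-100 group fell inside the wild type range and the other 3 lay above it. The difference was 0.21 (95% interval -0.09 to 0.51, adjusted p = 0.785, limma). With the intensity trend the interval of Ryr2 was 0.0040 to 0.42 (adjusted p = 0.624, limma). Ryr1, the skeletal muscle form, had 3.29 ± 0.18 and 3.37 ± 0.27 (SD, n = 4 each), at percentile 4.56 of all row means.

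S100a1, a calcium sensor that enhances the release channel and the pump, had 14.32, 13.86, 14.43 and 14.15 in wild type and 14.49, 14.47, 14.52 and 14.38 in miR-100 arrays. The miR-100 values were close together and the lowest overlapped the wild type range. Its difference of 0.28 (adjusted p = 0.719, limma) became 0.17 without wild type replicate 2, which was the lowest of its group. With the intensity trend the interval of S100a1 was 0.016 to 0.53 (adjusted p = 0.596, limma). Hrc, the histidine-rich calcium-binding protein, differed by 0.11. Of the junctional proteins that tie calsequestrin to the release channel, Trdn (triadin) differed by -0.09. The row of Asph, whose locus also encodes junctin, differed by 0.11. Fkbp1b, which encodes the immunophilin that binds Ryr2, had 4.42 ± 0.18 and 4.29 ± 0.09 (SD, n = 4 each), and Sri (sorcin) differed by -0.15. In this role group of 12 genes 0 passed the test, 7 differences were above 0 and 5 below, and the median was 0.09.

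The SERCA pump and phospholamban had rows at the top of the scale. The highest value in the table was 19.93, and 16 rows came within 0.2 of it on at least 1 array, Atp2a2 among them. Atp2a2, the cardiac SERCA pump, had 19.85, 19.86, 19.85 and 19.85 in wild type and 19.85, 19.85, 19.85 and 19.84 in miR-100 arrays. Pln, phospholamban, lay just outside that window with 19.64, 19.59, 19.64 and 19.65 in wild type and 19.64 on all 4 miR-100 arrays. Within each group the values of Atp2a2 ranged by 0.01 and those of Pln by 0.06 or less.

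Among rows with means above 4, spread shrank towards the top of the scale. The median residual SD was 0.275 for rows with means between 4 and 6, 0.170 between 14 and 16, 0.087 between 18 and 19, and 0.045 for the 28 rows above 19. For Atp2a2 the residual SD was 0.005. How far signal still follows RNA amount at the top of the scale was not tested, so the differences of -0.005 for Atp2a2 and 0.01 for Pln are given as signal alone. Their limma intervals (-0.28 to 0.27 and -0.26 to 0.28) reflect the common spread and not these rows.

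**Figure D3:**
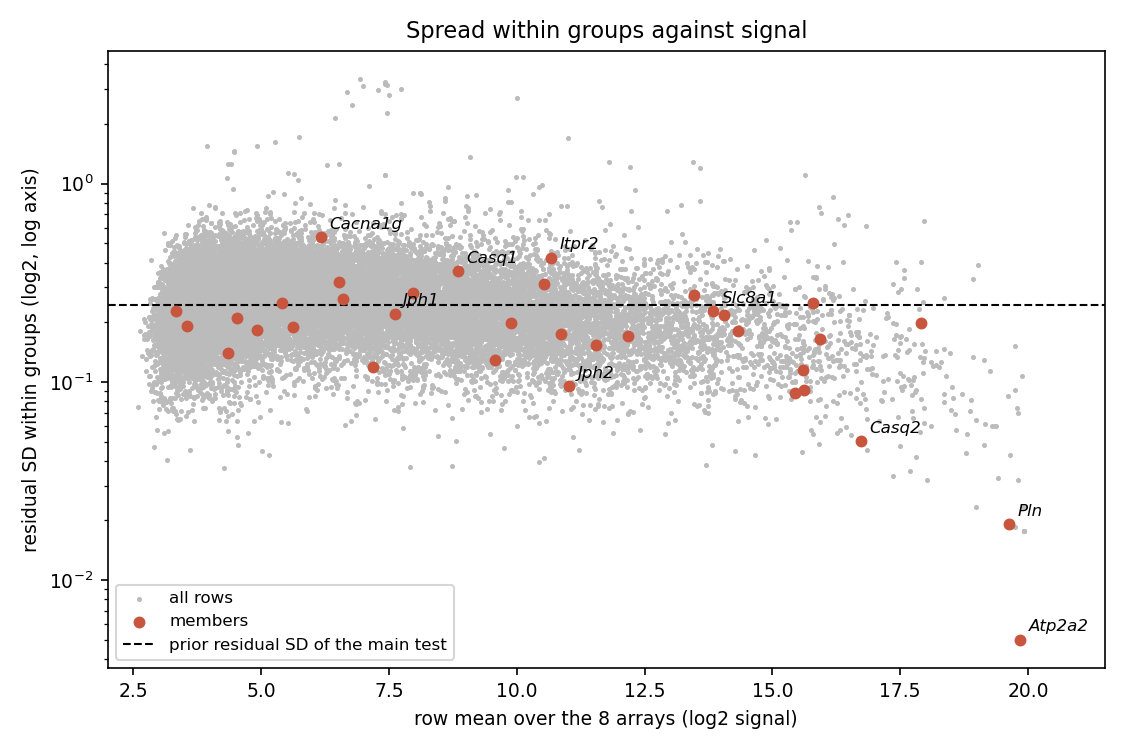
Residual SD within groups (vertical, log axis) against the mean over the 8 arrays (horizontal, log2 signal) for all 22206 rows in grey and the 35 calcium cycling genes in red, with the prior residual SD of the test, 0.244, as a dashed line. Spread narrows with signal, Atp2a2 (0.005) and Pln (0.019) sit at the bottom right, and Casq2 (0.050) lies well under the dashed line.

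The other pumps and inhibitors of this role group were not near that ceiling. Sln, sarcolipin, the pump inhibitor of atria and skeletal muscle, had 5.21, 5.33, 5.70 and 5.45 in wild type and 5.66, 5.54, 5.43 and 5.01 in miR-100 arrays. The groups overlapped throughout and the difference was -0.01 (95% interval -0.39 to 0.36). Of the 6 atrial markers measured beside it, 0 passed, 2 differences were above 0 and 4 below, and the median was -0.33. Tbx5 (-0.45) and Dkk3 (-0.40) were lower at an unadjusted p under 0.05 (limma). The summed signal of the list ran from 10.60 to 10.77 in wild type and from 10.35 to 11.07 in miR-100 arrays (log2 of the sum). Stard10 and Tbx5 (row means 9.69 and 8.87) carry most of that sum, while Myl7 and Bmp10 had row means of 4.03 and 3.74. Stard10 stood at 10.48 on miR-100 replicate 1 and between 9.39 and 9.67 on the rest of that group.

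Atp2a1, the fast skeletal muscle SERCA pump, had 3.36, 3.36, 3.61 and 3.20 in wild type and 3.56, 3.73, 4.03 and 3.60 in miR-100 arrays. Wild type replicate 3 overlapped the miR-100 range. The difference was 0.35 (SE 0.16, unadjusted p = 0.0449, adjusted p = 0.631, limma), at a row mean at percentile 9.32 of the table, and 0.25 without miR-100 replicate 3. Atp2a3, the pump form of endothelial and other non-muscle cells, differed by 0.02 (95% interval -0.38 to 0.42).

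Of the genes that carry calcium out of the cell, the exchanger had the larger difference. Slc8a1, the sodium-calcium exchanger NCX1, had 13.60, 13.52, 13.64 and 13.81 in wild type and 13.78, 13.92, 14.03 and 14.47 in miR-100 arrays. The groups overlapped by 0.03, and replicate 4 of the miR-100 group was the highest by far. The mean went from 13.64 ± 0.12 to 14.05 ± 0.30 (SD, n = 4 each), a difference of 0.41 (SE 0.17), or 1.33-fold with a 95% interval of 1.03 to 1.70 (adjusted p = 0.571, limma). Without miR-100 replicate 4 the difference was 0.27, a change of over 1.5 times.

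Atp2b1, a calcium pump of the surface membrane, had 9.61, 9.56, 9.62 and 9.78 in wild type and 9.38, 9.63, 9.36 and 9.65 in miR-100 arrays. In the miR-100 group replicates 1 and 3 lay below every wild type value and replicates 2 and 4 inside their range. The difference was -0.14 (95% interval -0.44 to 0.17, adjusted p = 0.888, limma).

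The surface calcium channels showed 0 calls among 6 genes, with 3 differences above 0 and 3 below. Cacna1c, the pore of the cardiac L-type channel Cav1.2, had 15.62, 15.71, 15.56 and 15.66 in wild type and 15.60, 15.43, 15.60 and 15.70 in miR-100 arrays. The groups lay on top of each other apart from miR-100 replicate 2, and the interval of the difference was -0.34 to 0.23 around -0.06. Its partners Cacnb2, the beta subunit, and Cacna2d1, the alpha2delta subunit, differed by 0.07 and 0.14, with intervals of -0.28 to 0.42 and -0.18 to 0.46. Cacna1d, the Cav1.3 pore of atria and pacemaker cells, had 4.55 ± 0.23 and 4.51 ± 0.19 (SD, n = 4 each).

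The T-type channels, which the adult ventricle carries at low levels, varied more between arrays. Cacna1h, the Cav3.2 pore, had 6.48, 6.54, 6.96 and 6.73 in wild type and 6.14, 6.96, 6.28 and 6.12 in miR-100 arrays. In the miR-100 group 3 values lay below every wild type value, while replicate 2 equalled the highest of them. The difference was -0.30 (95% interval -0.73 to 0.13, adjusted p = 0.788, limma), and -0.50 without miR-100 replicate 2. Cacna1g, the Cav3.1 pore, had the widest spread of the set, a residual SD of 0.54, with miR-100 replicate 3 at 5.21 and the other arrays of that group between 6.48 and 6.84. Its difference was 0.23 (95% interval -0.39 to 0.85). Of 5 measured markers of the conduction system, where T-type channels are abundant, 0 passed. Their differences were above 0 for 3 and below for 2, with a median of 0.0025, and Cntn2 was lower at an unadjusted p under 0.05 (-0.51, limma). The summed signal ran from 8.18 to 8.44 in wild type and from 8.05 to 8.32 in miR-100 arrays (log2 of the sum).

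**Figure D4:**
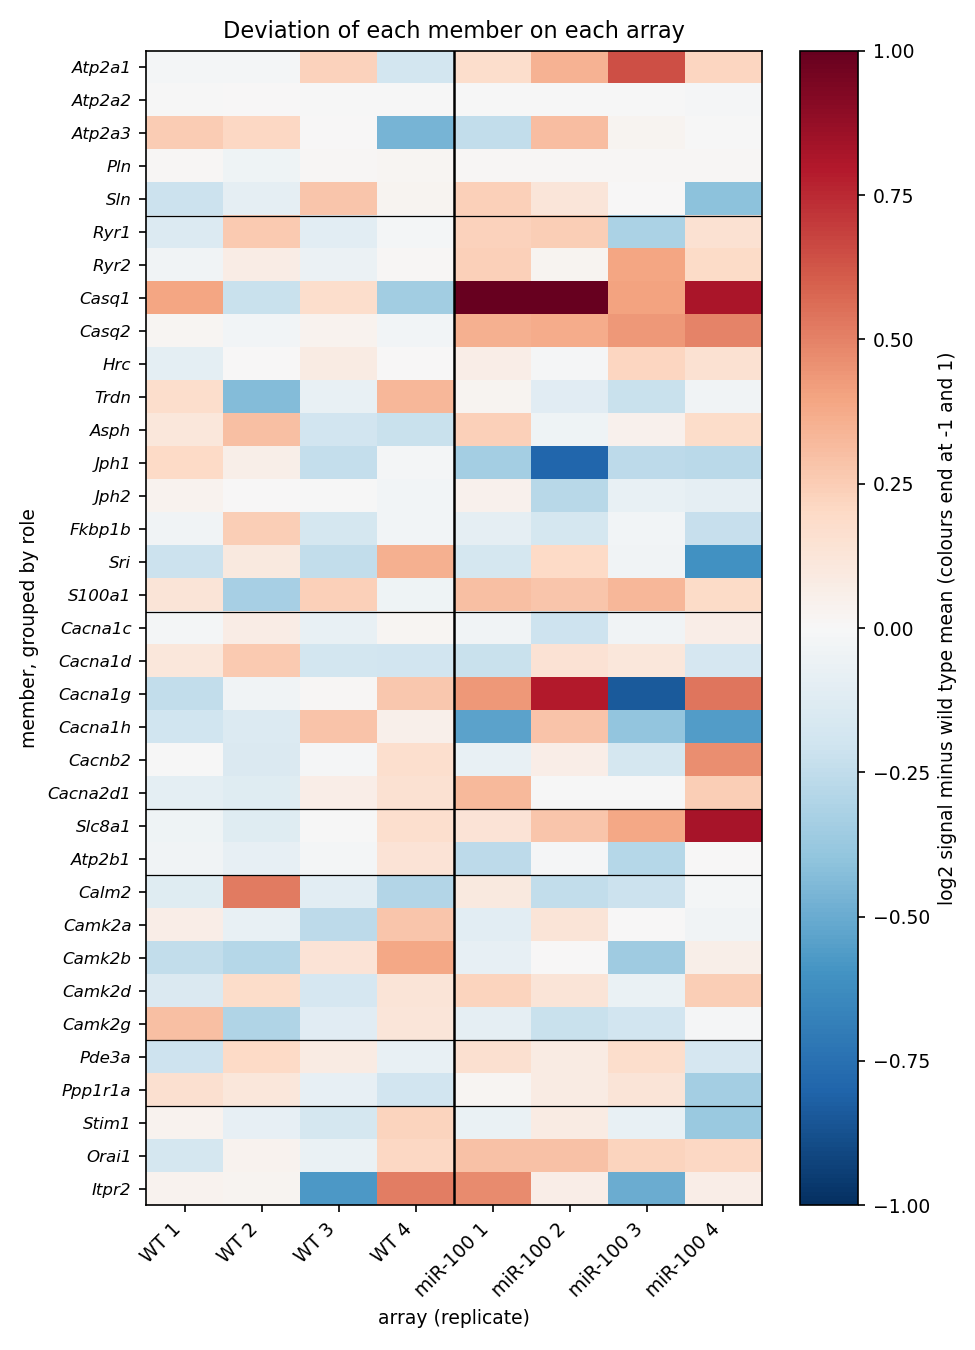
Log2 signal of each calcium cycling gene with a row (rows, grouped by role) on each array (columns), as the deviation from the wild type mean, with colours ending at -1 and 1. Casq2 and Casq1 are red on all 4 miR-100 arrays and Jph1 blue, Atp2a2 and Pln are blank throughout, and Cacna1g and Itpr2 vary between arrays of the same group.

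Calmodulin and its kinases, which pass the calcium signal to channels, phospholamban and the nucleus, stayed within narrow bounds. All 5 differences were smaller than 0.2 in size and all 5 intervals lay between -0.5 and 0.5. Camk2d, the main CaM kinase II isoform of heart muscle, had 15.71, 16.04, 15.69 and 15.99 in wild type and 16.08, 15.99, 15.79 and 16.10 in miR-100 arrays. The ranges overlapped for most of their length, with a difference of 0.13 (95% interval -0.19 to 0.45, adjusted p = 0.902, limma). Camk2a, Camk2b and Camk2g differed by -0.0025, -0.09 and -0.13. Calm2, a calmodulin gene, stood at 14.03 in wild type replicate 2 and between 13.22 and 13.61 on the other 7 arrays, with a difference of -0.09 (95% interval -0.49 to 0.30).

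The genes of cyclic AMP and phosphatase control that had a row differed little. Pde3a, the phosphodiesterase that degrades cyclic AMP near the reticulum, differed by 0.06 (95% interval -0.26 to 0.39). Ppp1r1a, inhibitor 1 of protein phosphatase 1, differed by -0.03 (95% interval -0.36 to 0.31).

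Store-operated entry refills the reticulum when STIM1 senses a low store and opens ORAI1 at the surface. Orai1 had 6.89, 7.10, 7.00 and 7.27 in wild type and 7.36, 7.36, 7.29 and 7.27 in miR-100 arrays. The groups met at 7.27, shared by wild type replicate 4 and miR-100 replicate 4. The difference was 0.26 (95% interval -0.05 to 0.56, adjusted p = 0.709, limma). Stim1 had 4.98 ± 0.17 and 4.87 ± 0.19 (SD, n = 4 each), and differed by -0.11. Itpr2, the main inositol trisphosphate receptor of heart muscle cells, ran from 10.08 to 11.17 in wild type and from 10.16 to 11.13 in miR-100 arrays, so its interval of -0.49 to 0.54 was among the widest.

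In the main test, without the trend, single arrays moved some of these differences without changing a call. Among the 10 genes with the lowest p-values, 0 passed in any of the 8 fits of that test without an array, and all 10 kept their sign in all 8. The narrowest range was that of Casq2 (0.39 to 0.43), and the widest that of Casq1 (0.74 to 1.05). Slc8a1 ran from 0.27 to 0.50, Jph1 from -0.50 to -0.29, S100a1 from 0.17 to 0.36 and Cacna1h from -0.50 to -0.21.

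**Figure D5:**
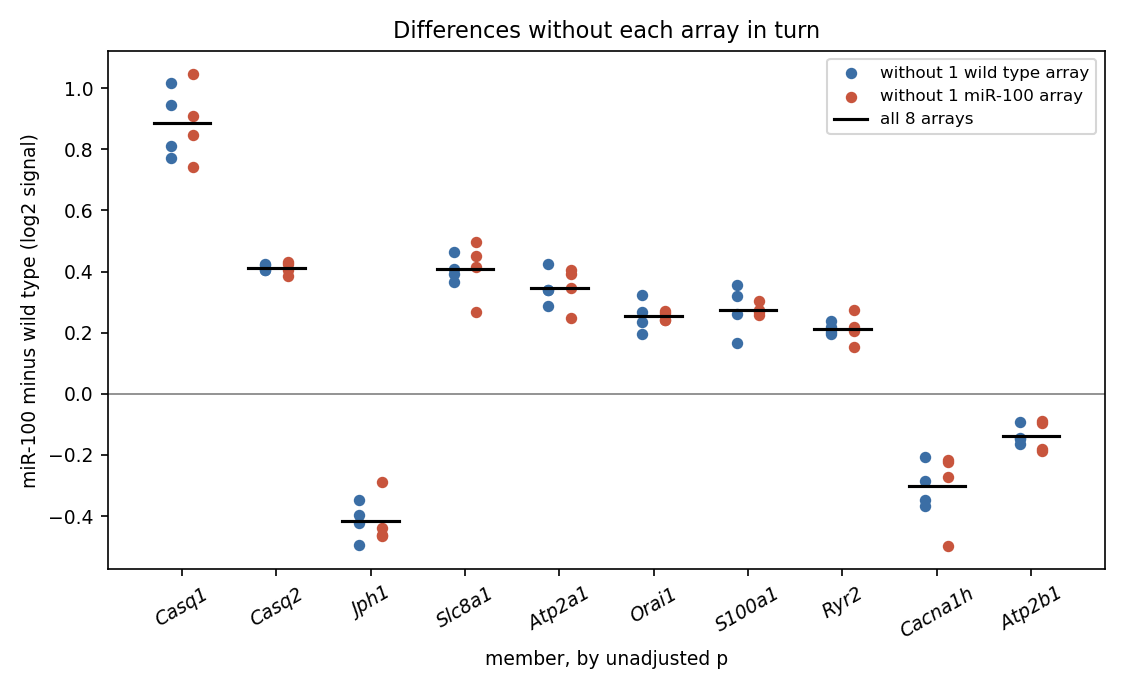
Difference in log2 signal (vertical) of the 10 calcium cycling genes with the lowest unadjusted p, with all 8 arrays (black bars) and without each wild type (blue) or miR-100 (red) array. The points of Casq2 lie together between 0.39 and 0.43, and those of Casq1 spread from 0.74 to 1.05.

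Among other genes of calcium handling, listed by name, 65 of 76 had a row and 0 passed the test, beside 0.140% of all rows, with 4 at an unadjusted p under 0.05 (6.15%, beside 7.73% of all rows, limma). Their median difference was 0.03, with 39 above 0 and 26 below. Pde3b, a phosphodiesterase related to Pde3a, had the lowest p, at 5.62 ± 0.18 in wild type and 6.21 ± 0.33 in miR-100 arrays (SD, n = 4 each), a difference of 0.59 (SE 0.18, adjusted p = 0.348, limma), and it was the single gene of this list whose groups did not overlap (1.54%, beside 4.54% of all rows). Ppp1r3a, the glycogen-targeting subunit of protein phosphatase 1 that also binds the reticulum, differed by -0.40 (adjusted p = 0.568, limma). Mcu, the pore of the mitochondrial calcium uniporter, differed by -0.37 (adjusted p = 0.617, limma), with means of 7.90 ± 0.10 in wild type and 7.54 ± 0.27 in miR-100 arrays (SD, n = 4 each).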

How the data were processed

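Each deposited value is the log2 signal of a transcript cluster. The submitters' processing notes name Transcriptome Analysis Console 4.0, and how the authors summarized and normalized is not given in the sources used here, nor is the build. Labelling used the WT Plus kit, per the labels' protocols. Rows were named through the platform annotation (1 symbol for 19572 of 22206 rows). The brightness of a row depends on its probes as well, so levels are not compared between genes, and the number of arrays limits precision.

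Group differences were fitted on the deposited values, without filter or covariate, with limma 3.58.1 in R 4.3.3 (linear model, empirical Bayes). The Benjamini-Hochberg adjustment covered all 22206 rows, and an adjusted p under 0.05 passed. The fit was first run on simulated data whose row spreads were drawn around the common value. Those spreads did not follow the signal, so the simulation did not cover the fall of spread towards the top of the scale. The genes, lists and roles were chosen with earlier results of these data known. Values of every array are given for genes past the threshold, the 10 with the lowest p, rows within 0.2 of the highest value, and 8 core genes (Atp2a2, Pln, Sln, Ryr2, Casq2, Cacna1c, Slc8a1, Camk2d). Of the other calcium handling genes, those past the threshold and the 3 with the lowest p are named. Skeletal, atrial and conduction markers were also chosen by name, as were those of smooth muscle and pericytes. Lists for endothelial cells, fibroblasts, macrophages, lymphocytes, fat, nerve and red blood cells were run too, with 0 markers past the test. Promoter windows came from RefSeq and were matched by symbol. The alternatives changed moderation, weights, normalization, filters, threshold, the replicate block and the arrays included.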

Additional observations from a re-analysis of the deposited data

Results flagged for a closer look

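Within each group of 4 arrays, the highest or lowest value was set against the others with Dixon's ratio, for 70 groups of values of the 35 genes. Chance alone flags about 1 group in 20, and 5 stood out. Jph1 on miR-100 replicate 2 was 7.03, where the nearest array of the group had 7.48. Ryr1 on miR-100 replicate 3 was 2.97, where the nearest had 3.44. The other 3 were rows at the top of the scale, where values with 2 decimals leave ranges of 0.06 or less: Pln on wild type replicate 2 at 19.59, Atp2a2 on the same array at 19.86, and Atp2a2 on miR-100 replicate 4 at 19.84.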

How the results depend on the processing

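Of 281 values of the 15 calcium cycling genes given array by array, over 19 alternatives, 275 kept their sign and their side of the threshold. With an intensity trend 1 calcium gene was called (Casq2, 0.41) instead of 0, and 65 rows of the table instead of 31, and over the fits with the trend and without an array, an alternative chosen after seeing the data, 0 to 1 calcium gene was called. A threshold of 0.10 also gave 65 rows. The 5 values that changed sign belonged to Sln, Atp2a2 and Pln, whose main differences were -0.01, -0.005 and 0.01. Sln changed with array weights (0.00030) and Atp2a2 with median centring (0.0013). Pln changed without wild type replicate 2 (-0.0033, with a range of -0.0033 to 0.017 over the 8 fits without an array). Sln also changed without wild type replicate 3 (0.08) or miR-100 replicate 4 (0.12), with a range of -0.10 to 0.12 over those fits. Without single arrays, and no trend, 11 to 27 rows of the table were called (15 without wild type replicate 2 or 3, 12 without miR-100 replicate 1, 11 without miR-100 replicate 3 or 4), 0 calcium genes and 0 others, and the median difference of the 35 genes ran from -0.0042 to 0.036. With the replicate block 21 rows and 0 calcium genes were called, with Casq1 the lowest at an adjusted p of 0.258 (limma). Same-numbered arrays did not deviate together (correlations of -0.06 to 0.07), so the numbers were not taken as pairs.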
